A study of Rattus norvegicus with 8 samples.

Results

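Genes that carry sodium, chloride and water across the lung epithelium were followed through hypobaric hypoxia in rats: the sodium channel subunits Scnn1a, Scnn1b and Scnn1g, the sodium pump subunit Atp1b1, the water channels Aqp1, Aqp3 and Aqp4, and the chloride channel Cftr. They were taken as the 8 genes of this list whose names stood beside a non-control probe on a two-channel oligonucleotide array. These 8 genes have 10 probes of 41012, and all 8 were among the 24141 genes that passed the filter on dim probes (in 4 or more of the 8 arrays, 1 of the channels had to be well above background). Lung RNA came from rats pretreated for 7 days, either with normal saline or with cobalt at 12.5 mg per kg, and then kept under hypobaric hypoxia at 30000 ft for 6, 12, 24 or 48 h. Each of the 8 groups is 1 array, whose other channel held 0 h RNA of rats with that pretreatment, and the 4 arrays of a pretreatment share 1 such RNA. Hypoxia RNA was labelled with Cy5 on the saline arrays and with Cy3 on the cobalt arrays. The labels name neither the rat strain, the age nor how many animals gave each RNA, so p-values measure the spread between arrays and durations, which may be technical in part, and carry nothing of how 0 h animals vary.

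The air spaces of the lung are kept nearly dry by the active uptake of sodium. Sodium enters epithelial cells through the channel ENaC, built from alpha (Scnn1a), beta (Scnn1b) and gamma (Scnn1g) subunits, and is pumped out at the other side by the sodium-potassium pump, whose beta subunit (Atp1b1) is needed to bring the pump to the membrane. Chloride follows, in part through Cftr, and water moves along the osmotic gradient, in part through aquaporins: Aqp1 lies mainly in capillary endothelium, Aqp3 and Aqp4 in airway epithelium. Hypoxia is known to slow this clearance in cultured alveolar cells, and the comparison of hypoxia with 0 h shows how the transcripts of these genes stood in whole lung.

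Sequences are shown for Aqp1 and Aqp3, the members with the highest ratio on the cobalt and on the saline arrays, and for the Scnn1a probe that lies in separate pieces on the genome. The promoter table of RefSeq (GRCr8) held 6 of the 8 members. The windows of Aqp1 (chr4:85812534-85812783, + strand) and Aqp3 (chr5:61040684-61040933, - strand) are the 250 bases before the start site, 5′ to 3′, with the TATA box in capitals.
Aqp1: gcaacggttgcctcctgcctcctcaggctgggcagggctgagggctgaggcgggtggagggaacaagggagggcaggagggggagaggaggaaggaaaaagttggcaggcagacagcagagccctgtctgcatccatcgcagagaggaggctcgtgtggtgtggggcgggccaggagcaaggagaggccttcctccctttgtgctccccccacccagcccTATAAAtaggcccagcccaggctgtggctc
Aqp3: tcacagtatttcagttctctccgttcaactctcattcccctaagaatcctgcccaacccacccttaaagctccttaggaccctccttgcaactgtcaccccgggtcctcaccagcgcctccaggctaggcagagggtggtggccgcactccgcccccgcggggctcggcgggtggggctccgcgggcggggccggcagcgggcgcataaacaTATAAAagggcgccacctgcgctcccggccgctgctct
The TATA box begins at position -30 in Aqp1 and at position -38 in Aqp3, counted from the start site, and TATAAA (or TTTATA on the other strand) stands in 12.9% of the 33469 windows in the table. Neither ACGTG, the core of the hypoxia response element (or CACGT; 16.6% of windows), nor AGAACA, the glucocorticoid receptor half-site (or TGTTCT; 17.5% of windows), stands in any window of the 6 members. Such matches describe letters and are not evidence of binding. Both windows have 65.2% G and C.

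Scnn1a has a pair of probes. The probe used for the gene was spotted 10 times and lies at chr4:161713781-161713840 (rn3, the build in the file headers, + strand). The other was spotted once, and its 60 bases match chr4:161711823-161711991, so that 109 bases between its pieces are skipped, as they are where a probe crosses an intron.
Scnn1a, second probe: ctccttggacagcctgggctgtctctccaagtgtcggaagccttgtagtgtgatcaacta
In rn3 the remaining probes lie at chr1:180887845-180887904 (Scnn1b, + strand), chr1:180729138-180729197 (Scnn1g, + strand), chr13:80228330-80228389 (Atp1b1, - strand), chr4:84396592-84396651 (Aqp1, + strand), chr5:58502026-58502085 (Aqp3, - strand), chr18:6628415-6628474 (Aqp4, - strand) and chr4:44195829-44195889 and chr4:44241264-44241323 (Cftr, + strand). The files do not say which exon or untranslated region each probe matches. In GRCr8, Scnn1g and Scnn1b lie next to each other on chromosome 1, 91226 bases apart, with 0 annotated genes between them.

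Each array has 45018 spots, controls included. Among the spots that are not controls, the share well above background lay between 57.7% and 67.2% for green and between 63.5% and 72.7% for red. Log2 ratios over all genes correlated at 0.565 to 0.698 between saline arrays, at 0.412 to 0.751 between cobalt arrays and at -0.0982 to 0.269 between saline and cobalt arrays. Pretreatment, slide, scan and dye orientation coincide, so any difference between cobalt and saline arrays cannot be told apart from these. The average of both pretreatments holds both dye orientations equally, so a dye effect that saline and cobalt arrays share cancels in it. A dye effect that differs between them does not cancel, and neither does any dye effect within a single pretreatment. Whether the dye effect was shared was not tested. The number of arrays limits the precision.

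Averaged over both pretreatments, Aqp1 and Atp1b1 were higher in hypoxia than at 0 h and Scnn1b was lower. Aqp1 was 1.96-fold and Atp1b1 1.62-fold higher, while Scnn1b was 1.24-fold lower. By limma with Benjamini-Hochberg adjustment over all genes, 2 of the 8 members passed as higher and 1 as lower at an adjusted p under 0.05. Of all genes tested, 31.9% passed (15.7% higher and 16.3% lower), so that 3 of 8 is near the share of all genes. The members' median was 0.28 on the log2 scale, against -0.00141 over all genes.

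**Figure D1:**
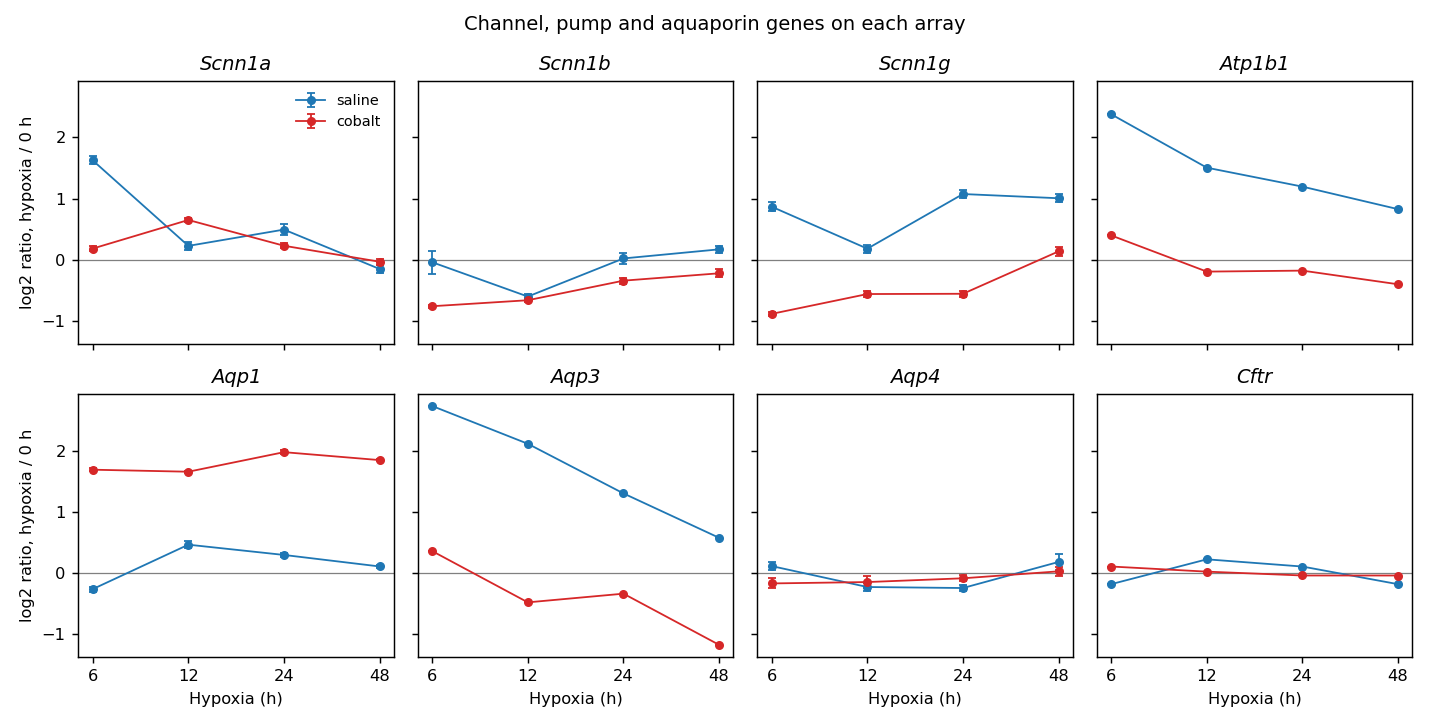
Log2 ratio of hypoxia over 0 h (y axis) at 6, 12, 24 and 48 h (x axis, evenly spaced) for each gene, with 1 array per point in blue (saline) and red (cobalt). Bars are the SD over the spots of a probe, drawn only for the 5 genes spotted 10 times. The saline and cobalt arrays do not overlap for Scnn1g, Atp1b1, Aqp1 and Aqp3.

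The alpha subunit Scnn1a, without which the sodium channel carries little current, had log2 ratios of 1.63, 0.23, 0.49 and -0.15 on the saline arrays at 6, 12, 24 and 48 h. On the cobalt arrays they were 0.18, 0.65, 0.23 and -0.033. The saline 6 h array stood far above the rest, 6 of 8 ratios were above 0, and the pretreatments overlapped. The second probe gave 1.38, 0.085, 0.11 and -0.043 in saline and -0.16, 0.22, 0.060 and 0.073 in cobalt, so that it too was highest on the saline 6 h array. Neither probe passed in the average: the first had an estimate of 0.40 ± 0.165 (SE, limma adjusted p = 0.0896) and the second 0.22 ± 0.141 (adjusted p = 0.265). Without the saline 6 h array the average of the first was 0.22, and without the saline 48 h array it was 0.52 and passed (limma adjusted p = 0.0362).

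The beta subunit Scnn1b, which with gamma brings the channel to the cell surface, had ratios of -0.041, -0.60, 0.021 and 0.17 on the saline arrays. In cobalt the ratios were -0.76, -0.66, -0.34 and -0.22. The 4 cobalt ratios and the saline 12 h ratio were clearly below 0, and the saline and cobalt ranges overlapped. The average was -0.30 ± 0.0929 (limma adjusted p = 0.0319), with 6 of 8 arrays below 0. In cobalt alone it was -0.50 ± 0.131 (1.41-fold lower, adjusted p = 0.0259). These calls were lost on leaving out any of several arrays. The average did not pass without the saline 12 h array (-0.22, limma adjusted p = 0.0586), the cobalt 6 h array (-0.26, 0.0828), the cobalt 12 h array (-0.28, 0.0848) or the cobalt 24 h array (-0.33, 0.0513). The cobalt value did not pass without cobalt 6 h (-0.41, limma adjusted p = 0.107), 12 h (-0.44, 0.111) or 24 h (-0.55, 0.0625). Without cobalt 24 h both estimates lay further from 0 than with it.

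The gamma subunit Scnn1g, the neighbour of Scnn1b on chromosome 1, had ratios of 0.87, 0.18, 1.07 and 1.01 on the saline arrays. With cobalt the ratios were -0.89, -0.56, -0.56 and 0.14. All 4 saline ratios were above all 4 cobalt ratios, by a narrow margin between saline 12 h and cobalt 48 h. Scnn1g was 1.72-fold higher in saline (0.78 ± 0.175, limma adjusted p = 0.00654). In cobalt the estimate was -0.47 ± 0.175 (adjusted p = 0.0872) and did not pass. Because the signs opposed, the average was 0.16 ± 0.124 (adjusted p = 0.358).

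The sodium pump subunit Atp1b1 had ratios of 2.38, 1.51, 1.20 and 0.83 on the saline arrays. On the cobalt arrays they were 0.40, -0.19, -0.18 and -0.40. Every saline ratio was above every cobalt ratio, and in both pretreatments the 6 h array was the highest and the 48 h array the lowest. Atp1b1 was 2.78-fold higher in saline (1.48 ± 0.215, limma adjusted p = 0.000761), and the cobalt estimate was -0.094 ± 0.215 (adjusted p = 0.797). The average of 0.69 ± 0.152 (limma adjusted p = 0.00781) passed under all 18 alternative settings, at 0.54 to 0.80, though only 5 of 8 arrays were above 0.

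Aqp1, the water channel of endothelium and red cells, had ratios of -0.27, 0.46, 0.29 and 0.10 on the saline arrays. On the cobalt arrays they were 1.69, 1.65, 1.97 and 1.84. The cobalt ratios lay close together and far above every saline ratio, and 7 of 8 were above 0. The average was 0.97 ± 0.0791 (limma adjusted p = 6.17e-05) and passed under all 18 alternatives, at 0.92 to 1.13. Aqp1 was 3.45-fold higher in cobalt (1.79 ± 0.112, limma adjusted p = 3.33e-05), and the saline estimate was 0.15 ± 0.112 (adjusted p = 0.32). The split between pretreatments depended on the dye normalization. With each array centred on its median in place of loess, the saline estimate was 1.31 and the cobalt estimate 0.66, both passing, while the average was 0.98.

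Aqp3, which passes glycerol as well as water, had ratios of 2.73, 2.11, 1.30 and 0.57 on the saline arrays. After cobalt they were 0.35, -0.48, -0.34 and -1.18. As for Atp1b1, no cobalt ratio reached the lowest saline ratio, and the 6 h array was the highest and the 48 h array the lowest in each pretreatment. Aqp3 was 3.20-fold higher in saline (1.68 ± 0.32, limma adjusted p = 0.00299), the largest saline estimate among the members, and the cobalt estimate was -0.41 ± 0.32 (adjusted p = 0.399). The average of 0.63 ± 0.227 missed the threshold (limma adjusted p = 0.0575). With duration as a factor, which takes the shared differences between durations out of the spread, the same average had an SE of 0.093 and passed (limma adjusted p = 0.00416), as it did without the saline 48 h array (0.82, 0.016) or the cobalt 48 h array (0.76, 0.0383).

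Aqp4, a water channel of the basolateral membrane of airway cells, had ratios of 0.11, -0.23, -0.25 and 0.18 in saline and of -0.17, -0.15, -0.090 and 0.023 in cobalt. The groups overlapped and lay around 0. Cftr, the chloride channel that is defective in cystic fibrosis, had ratios of -0.19, 0.22, 0.10 and -0.19 in saline and of 0.10, 0.019, -0.044 and -0.045 in cobalt. The averages were -0.074 ± 0.0587 (limma adjusted p = 0.368) for Aqp4 and -0.0024 ± 0.0514 (adjusted p = 0.977) for Cftr, and neither passed. The Cftr probe was near background: in hypoxia it was well above background on 4 of 4 saline and 0 of 4 cobalt arrays, and at 0 h on 4 and 2, so its cobalt ratios carry no measured size. The second Cftr probe, well above background in the hypoxia channel on 3 saline and 2 cobalt arrays, gave -0.097 ± 0.0338 (limma adjusted p = 0.0513 over all probes).

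**Figure D2:**
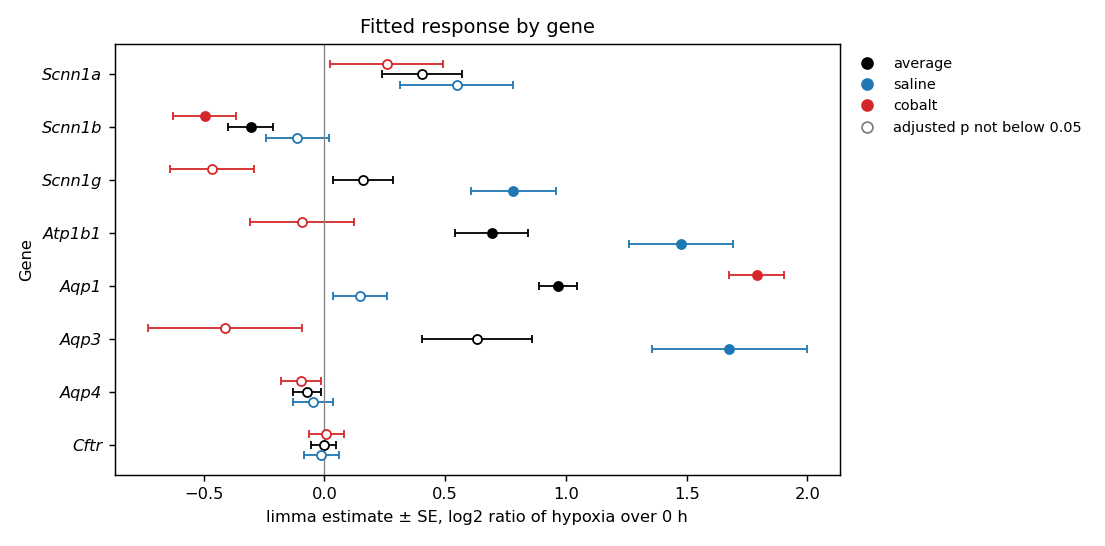
Limma estimates (points) with SE (bars) of the log2 ratio of hypoxia over 0 h for each gene, for the average of both pretreatments (black) and for saline (blue) and cobalt (red). Filled points have an adjusted p below 0.05. Filled saline points are Scnn1g, Atp1b1 and Aqp3, filled cobalt points Scnn1b and Aqp1.

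A dye effect does not cancel within a single pretreatment, and Scnn1g and Aqp3 did not pass in the average, which holds both dyes. Within saline, the gene of the gamma channel subunit, that of the pump subunit and Aqp3 were higher in hypoxia than at 0 h. This made 3 of 8 members higher and 0 lower by limma, where 40.1% of all genes passed (21.8% higher and 18.3% lower); at an unadjusted p under 0.05 there were 4, Scnn1a in addition, again with 0 lower, where 49.5% of all genes were below it (27% higher and 22.5% lower). The members' median was 0.348, against 0.026 over all genes. Within cobalt, Aqp1 was higher and Scnn1b lower. This made 1 of 8 higher and 1 of 8 lower, where 20.8% of all genes passed (8.54% higher and 12.3% lower), with medians of -0.0961 for the members and -0.0179 for all genes. With median centring, which moved the median of all genes to 0.279 in saline and to -0.495 in cobalt, 6 members passed as higher in saline, where 59.1% of all genes passed (49.7% higher and 9.4% lower). In cobalt 2 members then passed as higher and 6 as lower, where 80.4% of all genes passed (20.3% higher and 60.1% lower). Of the 2 higher, Aqp1 had 0.66 and Cftr 0.39, and the Cftr probe was well above background in hypoxia on 0 of 4 cobalt arrays.

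The difference between pretreatments compares the response on the cobalt arrays with that on the saline arrays. The pretreatments also differ in slide, scan and dye orientation. Scnn1g, Atp1b1 and Aqp3 had a lower response in cobalt than in saline, and Aqp1 a higher one. These 4 of 8 members passed (1 higher and 3 lower), where 30.1% of all genes did (12.7% higher and 17.5% lower). The same 4 did not overlap between the arrays of the 2 pretreatments, as 31.9% of all genes did not. The limma estimates of cobalt minus saline were -1.25 ± 0.247 for Scnn1g (adjusted p = 0.00526), -1.57 ± 0.304 for Atp1b1 (adjusted p = 0.00469), -2.09 ± 0.453 for Aqp3 (adjusted p = 0.00792) and 1.64 ± 0.158 for Aqp1 (adjusted p = 0.000211). For the 4 others the difference lay between -0.38 (Scnn1b, limma adjusted p = 0.146) and 0.021 (Cftr, adjusted p = 0.901). These values also depended on the dye normalization. With median centring they were -2.14 for Scnn1a, -2.23 for Scnn1b, -0.25 for Aqp4 and 0.37 for Cftr, which was near background in cobalt. All but Aqp4 then passed, as most of all genes did.

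With median centring, which moved the median of all genes in this difference to -0.781, the Aqp1 difference turned to -0.65 (limma adjusted p = 0.00295), or 0.135 above that median. Scnn1g, Atp1b1 and Aqp3 kept their sign and passed in all 18 alternatives. Median centring moved the difference downward over all genes, so it could hardly turn their negative sign. Under it they had -3.13, -3.84 and -3.03, or -2.35, -3.06 and -2.24 relative to that median. Each of these genes has a single probe, well above background on all arrays, so the filters and the mean over probes could not change its ratios. No alternative separates dye or slide from pretreatment.

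**Figure D3:**
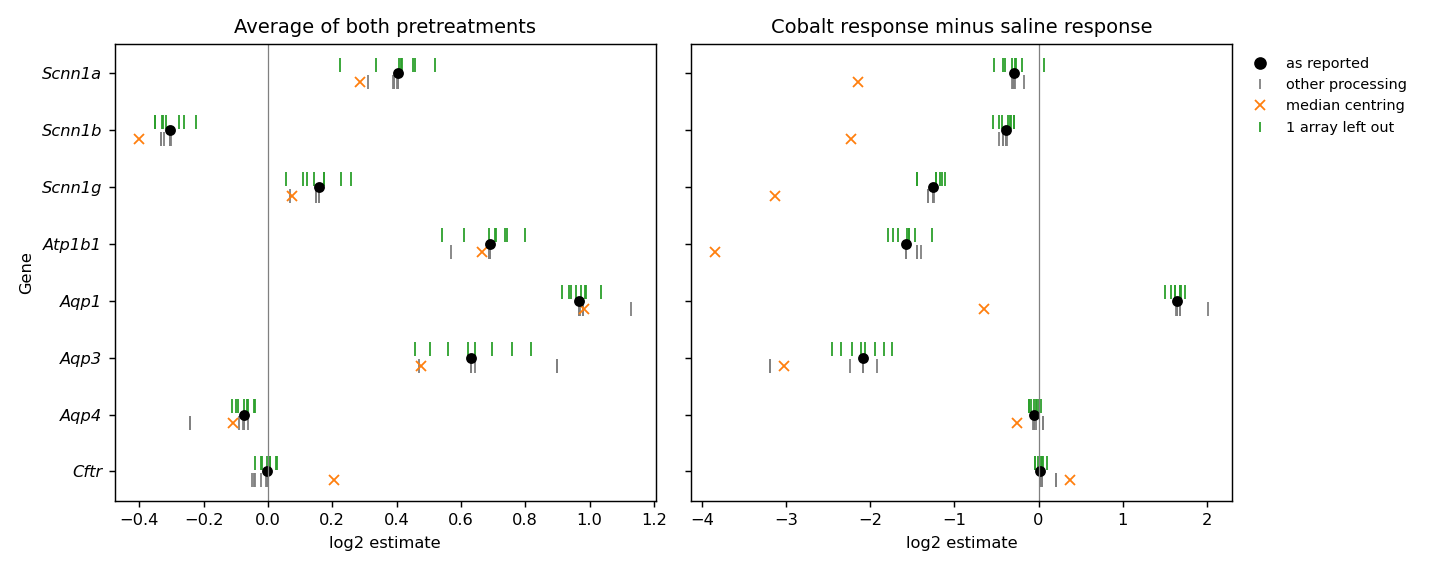
Log2 estimates of each gene for the average of both pretreatments (left) and for cobalt minus saline (right), as reported (black) and under the alternatives: 1 array left out (green, drawn above), other processing (grey, drawn below) and median centring (orange crosses). The average of Aqp1 stays between 0.92 and 1.13, while median centring takes its cobalt minus saline value to -0.65.

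Levels in the separate channels, set equal between arrays by quantiles of mean intensity, place these ratios. The 0 h channel repeats 1 RNA, and its SD over 4 arrays, up to 0.172 in saline and 0.165 in cobalt, is technical. For Aqp3 the log2 level was 7.21 ± 0.045 (SD, n = 4) at 0 h and 8.89 ± 0.979 in hypoxia on the saline arrays. On the cobalt arrays it was 8.41 ± 0.034 at 0 h and 8.00 ± 0.626 in hypoxia. The 0 h level of Aqp3 was thus higher on the cobalt than on the saline arrays, while its mean in hypoxia was lower, with levels that overlapped. Atp1b1 stood at 12.16 ± 0.103 at 0 h and 13.64 ± 0.572 in hypoxia in saline. In cobalt it stood at 13.84 ± 0.114 and 13.74 ± 0.376, so that the pretreatments differed mainly at 0 h. Scnn1g followed the same order, with 10.72 at 0 h and 11.51 in hypoxia in saline and 11.77 and 11.30 in cobalt. Aqp1 had the opposite order at 0 h, with 13.19 ± 0.0189 in saline and 12.33 ± 0.165 in cobalt, against 13.33 ± 0.33 and 14.12 ± 0.315 in hypoxia. The 0 h RNAs of the pretreatments were read in different dyes and on different slides, and their difference cannot be told apart from these.

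**Figure D4:**
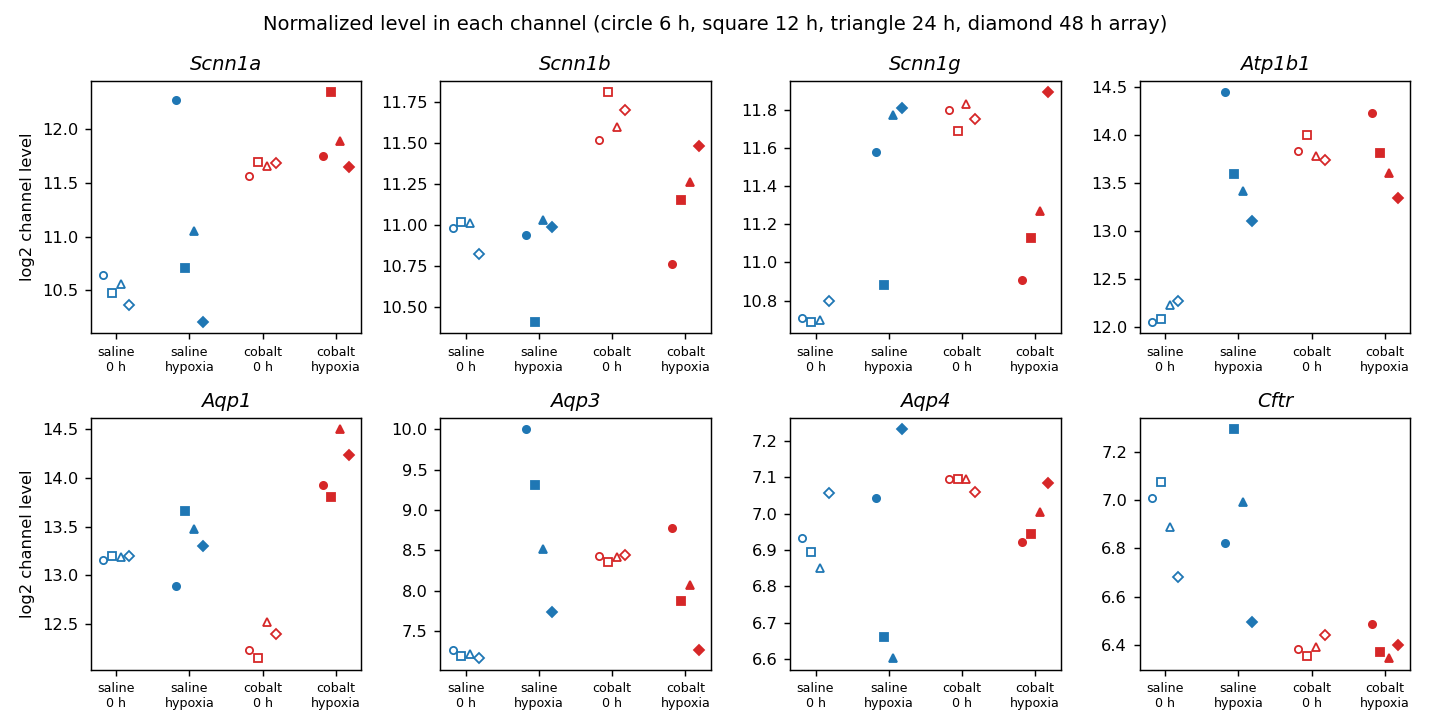
Normalized log2 level (y axis, a separate scale per gene) of the 0 h channel (open) and the hypoxia channel (filled) on each saline (blue) and cobalt (red) array, with the marker giving the duration. The open points of a pretreatment are 1 RNA measured 4 times. For Atp1b1, Aqp3 and Scnn1g the cobalt 0 h points lie above the saline 0 h points, for Aqp1 below.

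Over time, Atp1b1 and Aqp3 followed like courses. Averaged over the pair of arrays of each duration, which carry opposite dyes, the Aqp3 ratio was 1.54, 0.813, 0.478 and -0.304 at 6, 12, 24 and 48 h. That of Atp1b1 was 1.39, 0.656, 0.509 and 0.213. Scnn1a also had its highest mean at 6 h (0.904) and its lowest at 48 h (-0.0919), whereas Scnn1b was lowest at 12 h (-0.632) and nearest 0 at 48 h (-0.0258). Scnn1g went from -0.00895 at 6 h to 0.572 at 48 h, and Aqp1 stayed between 0.709 and 1.13. In the test of 24 and 48 h against 6 and 12 h, 0 of 8 members passed, as did 0% of all genes. At an unadjusted p under 0.05 limma gave 12.9% of all genes (3103; 6.45% higher and 6.41% lower) and 4 members, 2 higher and 2 lower: Aqp3 (-1.09 ± 0.29, adjusted p = 0.306), Atp1b1 (-0.66 ± 0.221, adjusted p = 0.324), Scnn1b (0.42 ± 0.136, adjusted p = 0.32) and Scnn1g (0.51 ± 0.203, adjusted p = 0.362). Leaving out 1 array at a time gave 0 to 3 genes, and 0 members.

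Markers of some cell types also differed between hypoxia and 0 h in whole lung, where fewer cells of a type and less RNA per cell cannot be told apart. On the saline arrays 8 of 9 ciliated cell markers and 5 of 7 club cell markers were higher in hypoxia, where 21.8% of all genes were. Their medians were 1.18 and 1.30, beside the higher Scnn1g, Atp1b1 and Aqp3. The log2 of the summed ciliated level was 13.86 to 14.93 in hypoxia and 12.88 to 13.03 at 0 h. On the cobalt arrays 4 of 9 ciliated and 2 of 7 club markers were lower, where 12.3% of all genes were. The summed ciliated levels there were 13.35 to 13.61 in hypoxia and 13.66 to 13.85 at 0 h. The summed club cell level was 16.02 to 16.70 in hypoxia and 14.86 to 15.12 at 0 h in saline, and 15.90 to 16.23 and 16.46 to 16.51 in cobalt. In cobalt minus saline 9 of 9 ciliated markers were lower (median -1.62) and 3 of 7 club markers (median -1.74), where 17.5% of all genes were. Their part in the results for Scnn1g, Atp1b1 and Aqp3 was not tested. For 24 and 48 h against 6 and 12 h, where 0% of all genes passed, the medians of these lists were 0.0352 (ciliated) and 0.351 (club).

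Alveolar and vascular markers gave another picture. Of all genes, 21.8% passed as higher and 18.3% as lower in saline, and 8.54% and 12.3% in cobalt. The counts lower in cobalt, 1 of 9 type I and 2 of 12 endothelial markers, are near that share. Of 11 type II cell markers, 10 were lower in saline (median -0.675) and 4 higher in cobalt (median 0.304); the summed level in saline was 17.49 to 17.59 in hypoxia and 18.34 to 18.61 at 0 h, and in cobalt 17.76 to 18.39 and 17.52 to 17.60. Of 9 type I cell markers, 4 were lower in saline and 1 in cobalt. Of 12 endothelial markers, 8 were lower in saline (median -0.714), and in cobalt 3 were higher and 2 lower (median 0.017). The summed endothelial level in cobalt was 16.35 to 16.62 in hypoxia and 16.38 to 16.46 at 0 h. Smooth muscle markers were higher in 9 of 9 in cobalt (median 1.69), and 6 of 9 were higher and 2 lower in saline. Of 6 basal and squamous markers, 2 were higher in saline, and 1 was higher and 1 lower in cobalt. The 6 erythroid markers had medians of 0.102 in saline and 0.348 in cobalt, with summed levels in cobalt of 12.35 to 15.54 in hypoxia and 13.07 to 13.37 at 0 h. The filter on dim probes had kept only markers with a channel well above background on 4 or more arrays. With median centring the medians of the type II, type I and endothelial lists in saline turned to 0.507, 0.388 and 0.219, and those of the type II, endothelial and erythroid lists in cobalt to -0.898, -0.873 and -0.0348. The smooth muscle median in cobalt was then 0.495, with 6 of 9 markers higher, where 20.3% of all genes were. The ciliated and club medians kept their sign in both pretreatments. Median centring moved ratios up in saline and down in cobalt, the sides on which these medians already lay. It could therefore hardly turn them. The part of these cell types in the results was not tested.

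**Figure D5:**
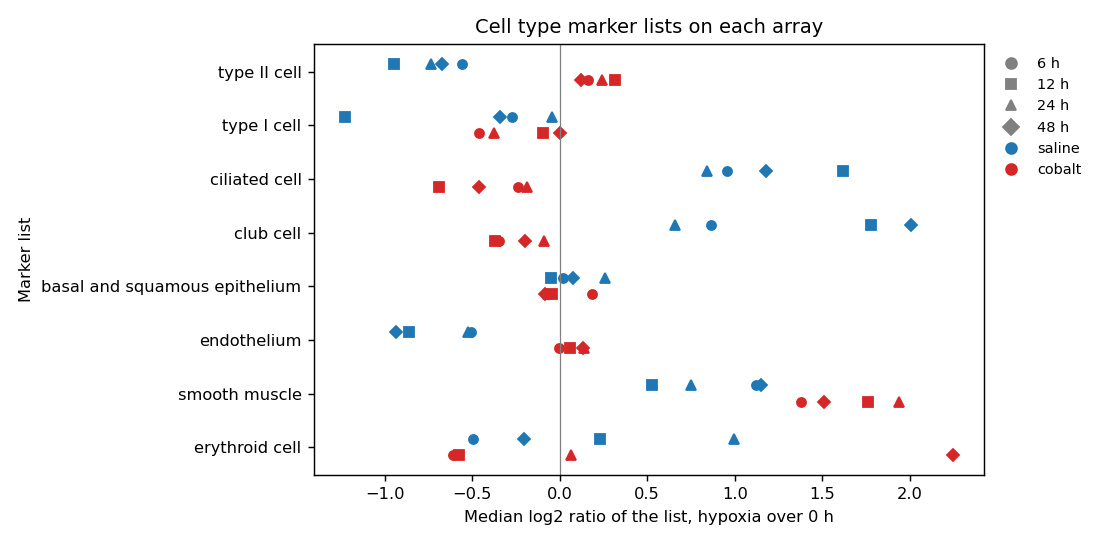
Median log2 ratio of hypoxia over 0 h (x axis) of each list of cell type markers (rows) on each array, saline in blue and cobalt in red, with the marker shape giving the duration. Ciliated and club cell medians lie above 0 on all saline arrays and below 0 on all cobalt arrays.

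Other genes of fluid transport and of its control were counted from a pair of lists. Of 26 other channels, pumps and transporters tested (34 listed), 4 were higher and 8 lower in the average, with a median of -0.01. Of 23 regulators tested (24 listed), 2 were higher and 9 lower, with a median of -0.158. Both lists together thus had 6 of 49 genes higher and 17 lower, where 15.7% and 16.3% of all genes were.

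Among the regulators with the lowest p was Sgk1, the kinase that keeps the sodium channel at the membrane. Its ratios were 0.89, 1.36, 1.40 and 0.573 on the saline arrays and 1.68, 1.98, 2.09 and 1.48 on the cobalt arrays. All 8 were above 0, and the average was 1.43 ± 0.103 (2.70-fold higher, limma adjusted p = 3.33e-05). Hsd11b2, which inactivates corticosterone beside the mineralocorticoid receptor, had ratios of -3.04, -2.80, -2.01 and -0.956 in saline and of -1.65, -1.54, -1.57 and -0.912 in cobalt. All 8 were below 0, nearest to 0 at 48 h in each pretreatment, and the average was -1.81 ± 0.201 (limma adjusted p = 0.000306). The receptors that induce sodium channel genes were lower on all 8 arrays: the average was -0.67 ± 0.0867 for the mineralocorticoid receptor Nr3c2 (limma adjusted p = 0.000656) and -0.46 ± 0.0663 for the glucocorticoid receptor Nr3c1 (adjusted p = 0.00107). With median centring the saline estimate of Nr3c1 turned to 0.429, and that of Nr3c2 was -0.103. Adrb1, an adrenergic receptor, averaged -0.35 ± 0.0548 and the kinase Wnk1 -0.30 ± 0.0587, and both passed.

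Among the transporters, the anion exchanger Slc26a4 (pendrin) was 3.25-fold higher on average (1.70 ± 0.288, limma adjusted p = 0.0023), with ratios from -0.436 (saline 24 h) to 3.27 (cobalt 6 h). Aqp5, the water channel of type I cells and also 1 of their markers here, was 1.80-fold lower (-0.85 ± 0.192, limma adjusted p = 0.00896) and below 0 on all 8 arrays, although its saline estimate turned to 0.199 with median centring. Aqp8 passed as higher, but its 0 h channel was well above background on 0 of 4 saline and 2 of 4 cobalt arrays, so the size was not measured. The averages of Sgk1, Hsd11b2, Nr3c1, Nr3c2, Slc26a4 and Aqp5 kept their sign and passed in all 18 alternatives.

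For each member that passed in the average, the named genes with the most similar ratios over the 8 arrays were listed as a description. The 4 points of a pretreatment share 0 h RNA, slide and dye. Among the genes most like Aqp1 were Bst2 (Pearson's r = 0.995) and Rab5c (0.986), and 503 of 12007 named genes had an r over 0.9 with it. Atp1b1 was most like Psmc2 (0.990), Nol8 (0.990) and Eif5-ps1 (0.987), with 357 genes over 0.9. Scnn1b was most like Cyb5a (0.975), Zfp51l1 (0.975) and Pccb (0.972), with 99 genes over 0.9.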

How the data were processed

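Lung RNA of 8 groups was measured on 8 two-channel arrays, 1 per group. Per the file headers, the authors' scanner files were written by Feature Extraction (Agilent, version 9.5.1.1). Per the file headers, spot signals and backgrounds are intensity values of the scanner, and the authors' LogRatio column holds the log10 ratio of red to green signal, corrected for background and dye by that software. The authors' deposited series matrix holds log2 ratios; its scale and direction (hypoxia over 0 h) were read from the values, and every column has a median of 0. Groups and dyes are per the labels.

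In limma 3.58.1 (under R 4.3.3, with the package data.table in version 1.17.8), normexp with an offset of 50 was the background correction and loess within each array the dye normalization, with control spots given no weight. Outlier spots (208 to 294 per array) were dropped and spots of a probe averaged. Of 41012 probes, 28419 passed the filter, and the brightest probe stood for each of 24141 genes. Names came from the RefSeq annotation GRCr8 for 10735 probes by accession, 5512 by symbol and 3719 by synonym; 21046 kept the file's name. Limma used a variance trend over mean intensity and Benjamini-Hochberg adjustment. Members and lists were chosen with earlier results of these data known. All members were named, with the 10 genes of the transport lists that had the lowest p among those passing in the average, and the 3 genes most like each member that passed; 2 genes that this rule selects are not reported here.

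Tested on simulated data with 200 changed genes of 24141, recovery at simulated log2 changes of 0.5 and 1 was 86% and 97.5% for the average, 19% and 87% for the difference between pretreatments, and 0% and 87% for late against early; effects of a shared 0 h RNA, slide or dye were not simulated. As alternatives the fits were repeated on the series matrix and on the software's log ratio, with median centring, without background subtraction, with arrays scaled to each other, without the filter or with a stricter filter, on the mean of a gene's probes, with outlier spots, with duration as a factor, and without each array in turn. These settings are not independent: the series matrix holds the software's log ratio on another scale, and some settings leave the ratios of a gene unchanged.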

Additional observations from a re-analysis of the deposited data

Results flagged for a closer look

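The responses of 4 genes differed between the pretreatments by the test of the difference itself. Scnn1g had a cobalt minus saline estimate of -1.249, Atp1b1 of -1.571, Aqp3 of -2.09 and Aqp1 of 1.642, each with a limma adjusted p under 0.05. The pretreatments also differ in slide, scan, dye orientation and 0 h RNA, and these cannot be told apart. With median centring in place of loess the Aqp1 difference was -0.65, and those of the other 3 kept their sign. That setting moved the median of all genes to -0.781, so it could hardly turn a negative sign.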

How the results depend on the processing

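With median centring, 19419 genes passed in cobalt (5024 as reported) and 19057 in the difference (7277). The share of passing genes that were higher moved from 54.3% to 84.1% in saline, from 41% to 25.2% in cobalt and from 42.1% to 21.5% in the difference. Under this setting signs turned for Cftr in the average (0.21) and in saline (0.022), Scnn1b (0.71) and Aqp4 (0.017) in saline, Scnn1a in cobalt (-0.78) and Aqp1 in the difference (-0.65). The Cftr value in cobalt turned without background subtraction (-0.00023) and with the mean over probes (-0.028), and the Aqp4 difference with the software's log ratio (0.053) and the series matrix (0.054). The cause was not tested.

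Leaving out 1 array gave 5491 to 7528 genes in the average (7707 as reported), 7551 to 9538 in saline (9687), 2237 to 5600 in cobalt, 5190 to 7281 in the difference and 0 to 3 in late against early. Signs turned for Cftr in the average (-0.041 to 0.027), saline (-0.090 to 0.045), cobalt (-0.024 to 0.025), the difference (-0.037 to 0.098) and late against early (-0.18 to 0.019). They also turned for Aqp4 in saline (-0.12 to 0.018), the difference (-0.12 to 0.026) and late against early (-0.029 to 0.18), Scnn1b in saline (-0.21 to 0.050), Atp1b1 in cobalt (-0.26 to 0.0086), Scnn1a in the difference (-0.52 to 0.068) and Aqp1 in late against early (-0.012 to 0.35). Of these, none passed as reported.

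Of all comparisons of a member with an alternative, 649 kept direction and side of the threshold, 20 came to pass, 7 no longer passed and 31 changed sign. Replicate numbers pair no samples, since each group holds 1 array. The arrays of a duration were joined instead, with duration as a factor: 7667 genes passed in the average, and Aqp3 in the average was the only member value whose call changed in the 4 comparisons fitted so. Probes near background, as for Cftr, limit what can be measured.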
